A study of Homo sapiens with 6 samples.

Results

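The nucleolar ribosome biogenesis factors examined here are 46 genes chosen by name, of 20036 in the deposited table. They comprise RNA polymerase I subunits and cofactors, the proteins of the small nucleolar ribonucleoproteins (snoRNPs), and processing factors of the small and large ribosomal subunits. All 46 symbols were found in the table. Expression was measured by RNA-seq of poly(A) RNA in MV411, a long-established line of human acute myeloid leukaemia with monocytic features, which carries a fusion of KMT2A and the internal tandem duplication of FLT3. Every library is labelled wild type (WT) and 48 h. One group of 3 libraries received Corilagin, a plant ellagitannin, and the control group of 3 libraries received DMSO, the solvent. No dose is stated in the sources used here, and all libraries come from 1 cell line. Whether the replicates are separate cultures is not stated either, so a p-value reflects the spread among 6 libraries, and that spread may be technical.

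Ribosomes are assembled in the nucleolus. RNA polymerase I transcribes a long precursor of the ribosomal RNAs there, box C/D and box H/ACA snoRNPs guide its methylation and pseudouridylation, and large sets of assembly factors fold, cut and export the small and large subunits. Growing leukaemia cells have prominent nucleoli, and many of the genes for these factors are known targets of the transcription factor MYC, which binds the E-box sequence CACGTG.

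Corilagin-treated cells carried less mRNA of most of these factors. On log2(FPKM + 1), where FPKM is fragments per kilobase of gene, scaled to the library total, 45 members passed the filter of a mean of at least 1 FPKM, and 32 of them were lower in the treated cells, with an adjusted p below 0.05 (limma, Benjamini-Hochberg over 9868 genes). None was higher, and 13 did not pass. Of all genes tested, 13.5% were lower (1331) and 11.9% were higher (1171). With FPKM rescaled to equal library sums, which moved the median of all genes to 0.14, 1059 genes were lower and 1620 higher, and 27 members were lower and none higher. The members' median log2 difference was -0.46, against 0.03 over all genes tested. Mean FPKM of the 32 lower members after corilagin ran from 0.457 of the DMSO mean (RRP12, small subunit processing) to 0.793 (DKC1, the pseudouridine synthase). RNA came from whole cultures, so fewer cells of a kind and less RNA per cell cannot be told apart.

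**Figure D1:**
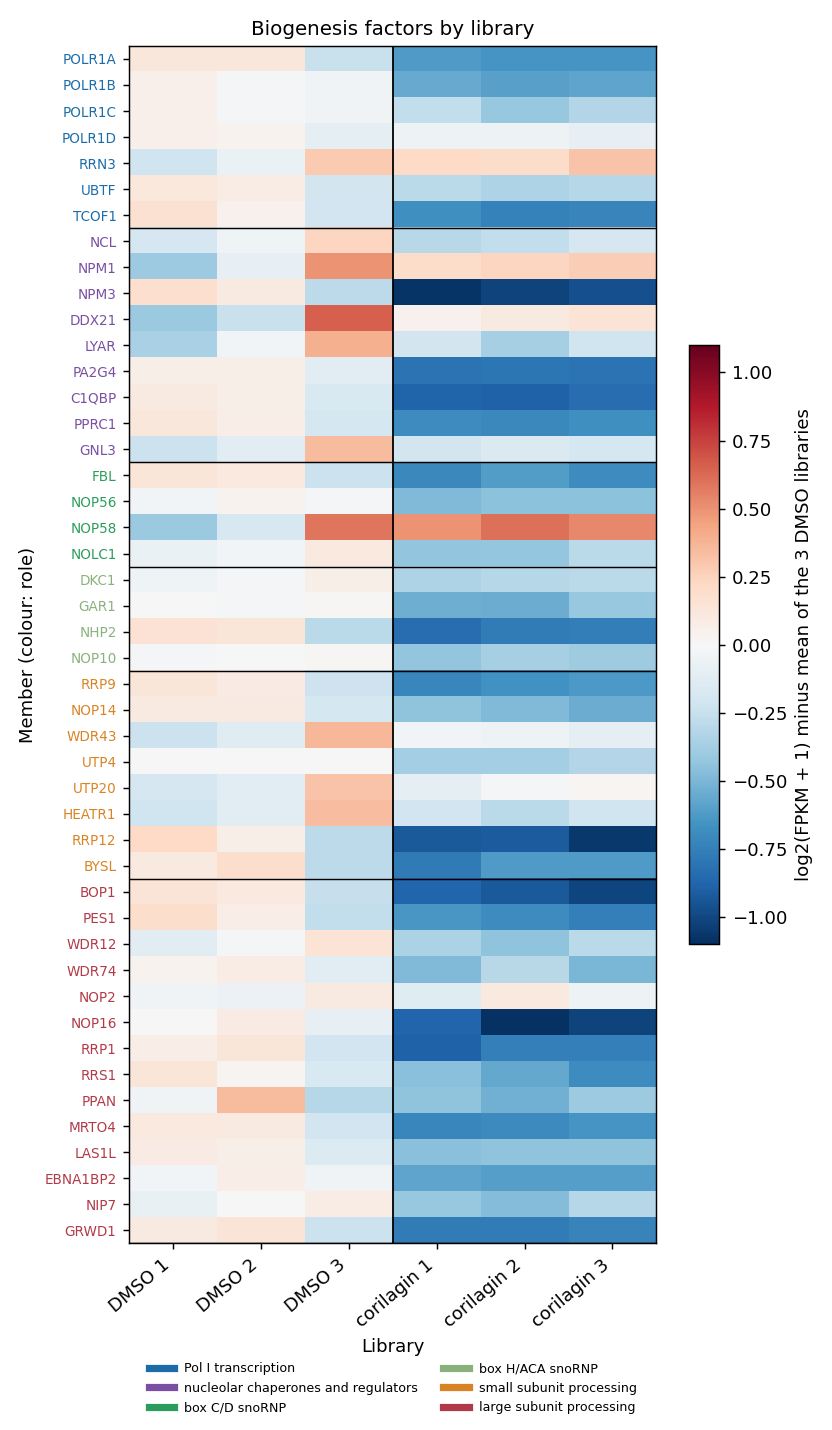
Level of each of the 46 members in each library, as log2(FPKM + 1) minus the mean of the 3 DMSO libraries (colour scale), with members grouped by role. Most members are blue in all 3 corilagin libraries, while RRN3, NPM1, DDX21 and NOP58 are red there and are also red in DMSO replicate 3.

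Promoter windows were examined because many of the members fell together. RefSeq (GRCh38.p14) gave a window from 250 bases before to 50 bases after the start site for 40 of the 46 members. The E-box CACGTG, which reads the same on both strands, was present in 12 of the 40 windows (30%), against 10.8% of 8105 windows of genes tested and 7.43% of all 27305. In 11 of the 40 (27.5%) it lay within 50 bases of the start site, against 4.44% of the windows of genes tested. A set of 4 stretches is shown because it places the E-box beside the start site in genes of different roles and different responses. Each runs 5′ to 3′ on the gene's strand from 50 bases before the start site to 30 bases after it, with the E-box in capitals. FBL (the snoRNP methyltransferase) at chr19:39846350-39846429 on the minus strand, NOP10 (a box H/ACA protein) at chr15:34343107-34343186 on the minus strand and MRTO4 (large subunit assembly) at chr1:19251755-19251834 on the plus strand passed as lower. WDR43 (small subunit processing) at chr2:28894617-28894696 on the plus strand did not pass in the values as deposited.
FBL: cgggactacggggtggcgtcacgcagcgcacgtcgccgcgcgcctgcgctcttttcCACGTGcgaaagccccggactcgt
NOP10: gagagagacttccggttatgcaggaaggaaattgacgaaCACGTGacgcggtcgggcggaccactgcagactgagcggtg
MRTO4: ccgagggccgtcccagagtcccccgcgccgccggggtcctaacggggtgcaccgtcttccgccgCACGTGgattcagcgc
WDR43: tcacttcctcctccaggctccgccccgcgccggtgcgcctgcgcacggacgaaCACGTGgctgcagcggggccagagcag

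Of the 12 genes with an E-box in the window, 11 were tested and 9 were lower. Of the 28 tested genes with a window and no E-box, 18 were lower. These are counts as deposited, with median log2 differences of -0.60 with an E-box and -0.44 without. In the fit with the trend in GC content removed, described below, 11 and 23 were lower. The medians there were -0.47 and -0.50, so the order of the medians turned. The motif CCGGAAGT of ETS factors was found on either strand in 9 of the 40 windows (22.5%; 10.3% of genes tested), and NOP10 and UTP4 hold both it and the E-box. The YY1 motif was in 3 windows (7.5%; 2.39% of genes tested), and the NRF1 motif in 1 (2.5%; 2.55% of genes tested). A match describes the letters in a window and is not evidence of binding.

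DMSO replicate 3 stood apart from the other controls, and this bears on every value that follows. Its counts differed from those of DMSO replicates 1 and 2 by a chi-square of 107.13 and 85.38 per gene, against 5.19 between replicates 1 and 2 and 2.61 to 3.78 within the corilagin group. Transcripts of low GC content were higher in it and those of high GC content lower, and the corilagin libraries had a GC trend like its own. Many members of low GC content had wide control groups. A fit with the GC trend of each library removed by a spline is given beside many of the deposited values. It also takes out any true difference that follows GC content. Ratios to the DMSO mean are of deposited values only. In that fit 39 of the 45 members were lower, none was higher, and 6 did not pass, while 23.2% of all genes tested were lower and 21.8% higher. All 32 members called in the deposited values were also called there. The median difference was -0.47, against -0.01 over all genes.

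**Figure D2:**
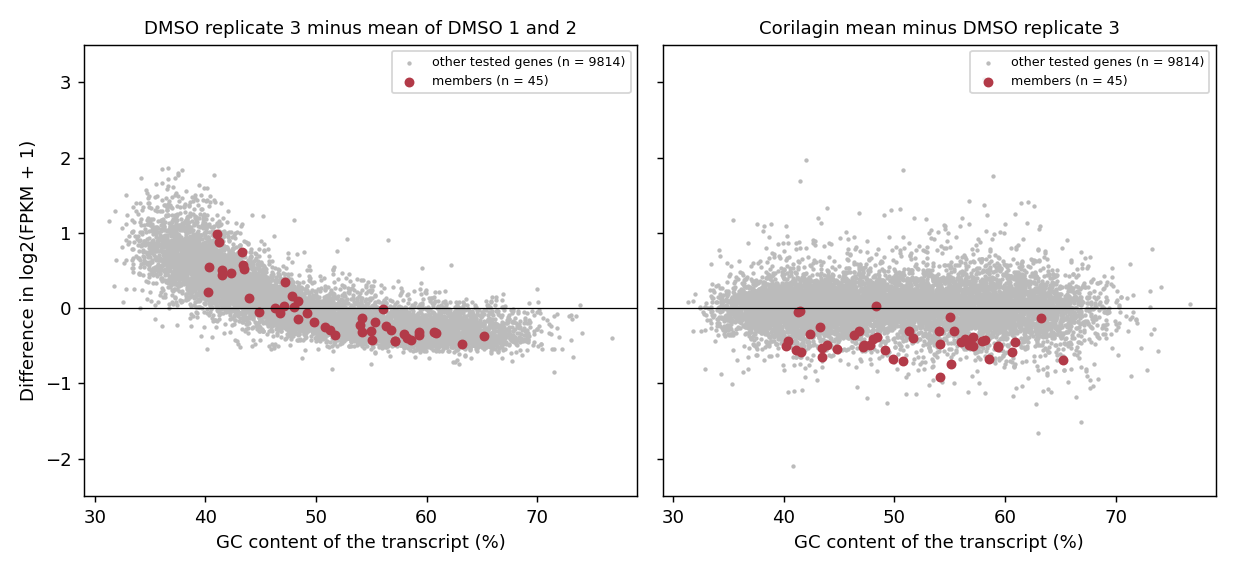
Difference in log2(FPKM + 1) against the GC content of the transcript (%), for 45 members (red) and the other tested genes (grey). Left, DMSO replicate 3 minus the mean of DMSO replicates 1 and 2 falls with GC content in members and other genes alike; right, the corilagin mean minus DMSO replicate 3 shows no such slope, and members have a median of -0.49 at low and -0.45 at high GC content.

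The 23 tested members with a GC content of 40.2 to 50.8% included 12 that were lower as deposited and 18 with the trend removed. The 22 members at 51.3 to 65.2% included 20 and 21. All genes of the lower GC range were lower in 7.79% and higher in 17.3% of cases as deposited, and those of the higher range in 22.8% and 5.36%. With the trend removed 22.3% and 25.8% of all genes in the lower and the higher range were lower. Against DMSO replicate 3 alone, which shares the GC trend of the treated libraries, all 3 corilagin libraries were lower in 42 of 45 members (38.4% of all genes tested). The exceptions were POLR1D, RRN3 and NOP58. Against all 3 controls, every corilagin library lay below every DMSO library in 34 of 45 members (23.3% of all genes) and above in none (25%).

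Left-out libraries changed the counts widely. Without DMSO replicate 3, 36 members were lower and 5 were higher (RRN3, NPM1, DDX21, NOP58 and WDR43), with 36.5% of all genes lower and 40.8% higher. Without DMSO replicates 1 and 2, 40 were lower and none higher (18.4% and 19.5% of all genes); the lone control was assumed to vary like the corilagin libraries. Omitting corilagin replicate 1, 2 or 3 left 9, 9 and 12 members lower (1.94%, 1.78% and 2% of all genes). Omitting DMSO replicate 1 or 2 left 24 and 17 (4.88% and 2.99%). The calls of POLR1B, NPM3, PA2G4, C1QBP, RRP12, BOP1, NOP16, RRP1 and EBNA1BP2 held in each of these 6 fits.

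The summed members took 0.553%, 0.560% and 0.572% of fragments in corilagin replicates 1, 2 and 3. They took 0.680%, 0.709% and 0.757% in the DMSO replicates. The 2 groups did not overlap, and DMSO replicate 3 had the highest share. The 95% exact (Clopper-Pearson) intervals, which cover counting error only, ran from 0.550% to 0.575% over the corilagin libraries and from 0.677% to 0.761% over the DMSO libraries. In summed FPKM the DMSO replicates stood at 1493, 1528 and 1511. Without NCL and NPM1, which did not pass as deposited, they stood at 1302, 1308 and 1219, with replicate 3 the lowest control. The corilagin replicates then stood at 857, 871 and 874. An exact 2-sided permutation test of 3 against 3 libraries cannot go below p = 0.1.

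Among the 7 factors of RNA polymerase I transcription, 4 were lower, with a median log2 difference of -0.34. TCOF1, the treacle protein that links the polymerase to pre-rRNA processing (chromosome 5, 59.4% GC), had the lowest value of the class. It stood at 8.69, 8.26 and 8.35 FPKM after corilagin and at 16.4, 15.0 and 12.4 FPKM in DMSO replicates 1, 2 and 3. Each treated library lay below each control, and DMSO replicate 3 was the lowest control. The means were 8.44 ± 0.228 and 14.6 ± 2.01 FPKM (SD, n = 3 per group), a log2 difference of -0.72 (SE 0.110, adjusted p = 0.00801), and -0.53 with the GC trend removed.

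The catalytic subunits POLR1A and POLR1B had mean levels of 0.595 and 0.633 of DMSO. POLR1C, a subunit shared with RNA polymerase III, was at 0.749 of DMSO. It shares 6.3% of its exon bases with XPO5 (11.5 to 19.63 FPKM) and 2.3% with YIPF3 (15.08 to 21.8 FPKM), both more abundant than POLR1C. POLR1B was close in all controls, at 9.73, 9.21 and 9.05 FPKM, against 6.03, 5.81 and 5.90 FPKM after corilagin. POLR1D, the other member that is a subunit shared with RNA polymerase III, had the highest mean of the class. It was at 31.8, 31.9 and 31.2 FPKM after corilagin and at 34.6, 34.2 and 30.9 FPKM in DMSO, so the groups overlapped. Its log2 difference of -0.07 (adjusted p = 0.504) did not pass, and neither did the value with the GC trend removed (-0.06, adjusted p = 0.319).

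RRN3, which recruits the polymerase to the promoter as TIF-IA, had the highest difference of the class. Its values were 15.7, 15.5 and 16.8 FPKM after corilagin and 11.3, 12.6 and 16.5 FPKM in DMSO. The treated libraries lay with DMSO replicate 3 and above the other controls, and the log2 difference was 0.25 (adjusted p = 0.188) as deposited and -0.05 (adjusted p = 0.440) with the trend removed. UBTF, the factor that holds ribosomal DNA in an open state, was at 21.7, 21.1 and 21.4 FPKM against 29.2, 28.6 and 23.3 FPKM. Its groups did not overlap, yet its difference of -0.32 did not pass as deposited (adjusted p = 0.0572) and passed with the trend removed (-0.19, adjusted p = 0.0109).

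**Figure D3:**
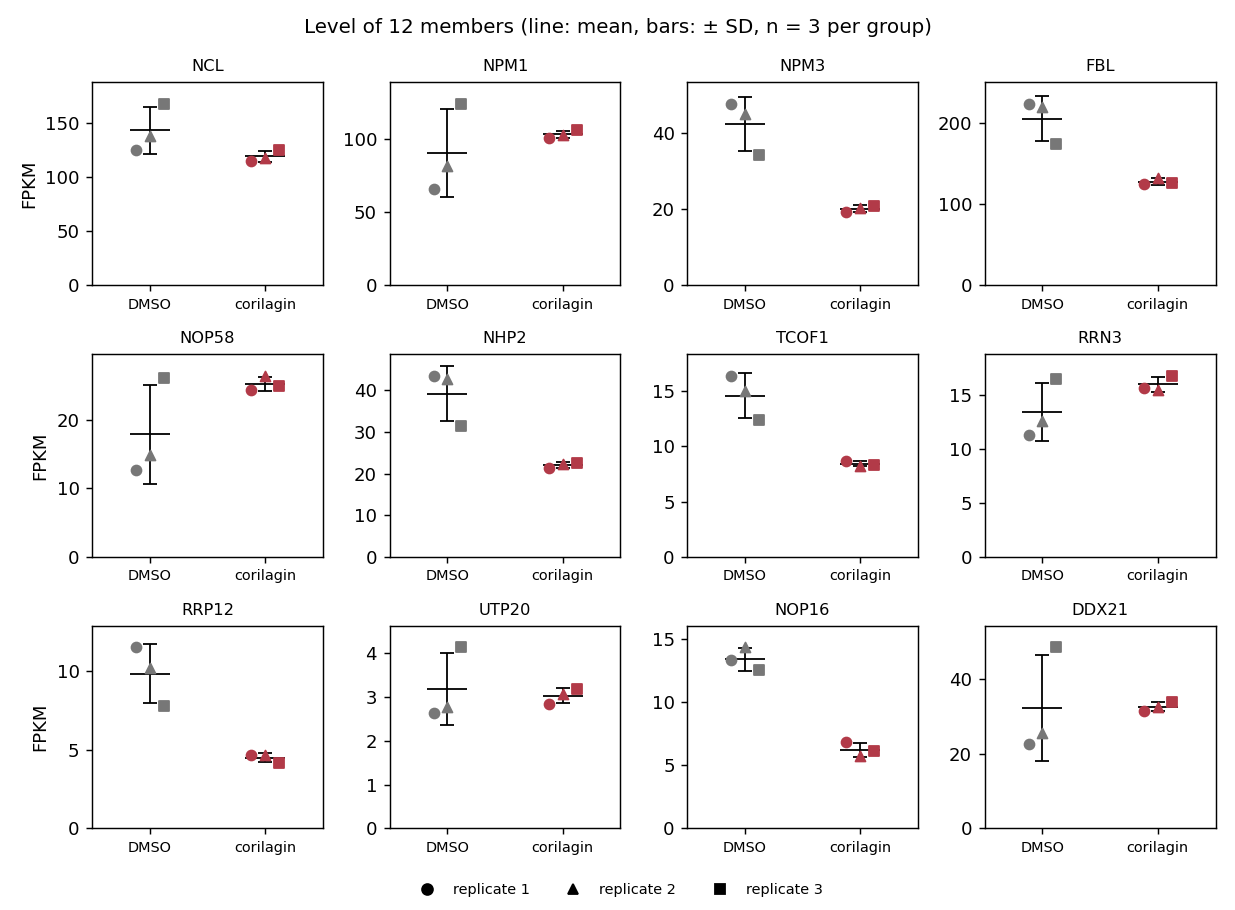
FPKM of 12 members in each DMSO (grey) and corilagin (red) library, by replicate number (symbol), with the group mean (line) and SD (bars, n = 3). For TCOF1, NPM3, FBL, NHP2, RRP12 and NOP16 the groups are apart, while for NPM1, NOP58, RRN3, UTP20 and DDX21 the treated libraries lie within or beside a wide control group.

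The 9 nucleolar chaperones and regulators split, with 4 lower and 5 not passing. NPM3, a small relative of nucleophosmin, had the lowest value of all members on the log2 scale. It was at 19.3, 20.2 and 20.9 FPKM after corilagin and at 47.6, 45.0 and 34.2 FPKM in DMSO. All treated values lay below the lowest control, and the means of 20.1 ± 0.797 and 42.3 ± 7.09 FPKM (SD, n = 3 per group) gave a log2 difference of -1.02 (SE 0.129, adjusted p = 0.00448). With the trend removed it was -0.89 (adjusted p = 7.72e-05).

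The growth regulator PA2G4 was at 34.1, 34.5 and 34.1 FPKM after corilagin and at 63.2, 63.2 and 55.3 FPKM in DMSO, a ratio of 0.565. C1QBP, a mainly mitochondrial protein that also acts in the nucleolus, was at 72.4, 72.1 and 74.7 FPKM against 144, 141 and 120 FPKM, a ratio of 0.541. PPRC1, a coactivator of the PGC-1 family, had a ratio of 0.591. These 3 also had no overlap between groups.

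NCL, nucleolin, the abundant RNA-binding protein of the nucleolus, had the highest mean of the class. It was at 115, 118 and 125 FPKM after corilagin and at 125, 138 and 168 FPKM in DMSO. The highest treated library met the lowest control, and the difference of -0.26 did not pass (adjusted p = 0.125). With the GC trend removed it was -0.28 (adjusted p = 0.0458).

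NPM1, nucleophosmin, the histone and ribosome chaperone mutated in many leukaemias, was at 101, 103 and 106 FPKM after corilagin. In DMSO it was at 65.9, 81.9 and 124 FPKM, a range that holds all treated values. The difference was 0.24 (adjusted p = 0.379) as deposited and 0.04 (adjusted p = 0.807) with the trend removed. The annotation names 45 pseudogenes of NPM1, so reads of this gene are uncertain.

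DDX21, an RNA helicase of polymerase I and snoRNA function, had the largest SE of all tested members (0.257). It was at 31.4, 32.6 and 33.8 FPKM after corilagin and at 22.6, 25.4 and 48.4 FPKM in DMSO. All treated values lay between DMSO replicates 2 and 3, and neither the deposited difference (0.10, adjusted p = 0.774) nor that with the trend removed (-0.21, adjusted p = 0.208) passed.

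LYAR, a nucleolar zinc finger protein, was at 12.9, 11.4 and 12.7 FPKM against 11.5, 14.6 and 19.9 FPKM. GNL3, nucleostemin, a GTP-binding protein of proliferating cells, was at 41.0, 42.3 and 41.4 FPKM against 40.1, 43.7 and 60.6 FPKM. In both genes the treated libraries overlapped DMSO replicates 1 and 2 and lay below replicate 3. Neither passed as deposited (adjusted p = 0.272 for LYAR and 0.347 for GNL3), and both were lower with the trend removed (-0.46, adjusted p = 0.00928, and -0.38, adjusted p = 0.00498).

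In the box C/D class 3 of 4 members were lower. FBL, fibrillarin, the methyltransferase of the particle, had the highest mean of all members and the lowest difference of its class. It was at 125, 133 and 126 FPKM after corilagin and at 224, 220 and 174 FPKM in DMSO. The groups did not overlap, and the means of 128 ± 4.50 and 206 ± 27.4 FPKM (SD, n = 3 per group) gave a log2 difference of -0.67 (SE 0.109, adjusted p = 0.00922). With the trend removed it was -0.50. The core protein NOP56 and the snoRNP chaperone NOLC1 had ratios of 0.719 and 0.762.

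NOP58, the partner of NOP56 in the same particle, did not pass. It was at 24.3, 26.4 and 24.9 FPKM after corilagin and at 12.6, 14.9 and 26.0 FPKM in DMSO. The treated libraries lay around DMSO replicate 3 and above the other controls. Its log2 difference of 0.54 was the highest of all members (adjusted p = 0.118), and it was 0.24 with the trend removed (adjusted p = 0.133). NOP56 has a GC content of 56.0% and NOP58 of 41.3%, and in DMSO replicate 3 NOP56 was at 0.989 and NOP58 at 1.89 of the mean of the other controls.

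All 4 box H/ACA proteins were lower, with a median of -0.45, and they were lower with the trend removed too. NHP2, which binds the guide RNA, was at 21.3, 22.3 and 22.5 FPKM after corilagin and at 43.5, 42.6 and 31.5 FPKM in DMSO. The groups did not overlap, and the log2 difference was -0.79 (adjusted p = 0.00956), or -0.63 with the trend removed. Of the exon bases of NHP2, 27.4% are shared with RMND5B, so its counts carry that uncertainty.

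NOP10, the smallest protein of the particle, varied little in either group. It was at 37.7, 39.8 and 39.0 FPKM after corilagin and at 50.8, 51.5 and 51.9 FPKM in DMSO, a difference of -0.39 (SE 0.0687, adjusted p = 0.0116). DKC1, dyskerin, the catalytic subunit, was at 15.4, 15.7 and 15.9 FPKM against 19.1, 19.5 and 20.7 FPKM, a difference of -0.32 (adjusted p = 0.0262). GAR1, the remaining protein, was at 0.697 of DMSO. In NOP10, DKC1 and GAR1 DMSO replicate 3 was at 1.01, 1.07 and 1.02 of the mean of the other controls, and each treated library lay below each control.

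Small subunit processing factors were lower in 5 of 8 cases, and in all 8 with the trend removed. RRP12, a subunit export factor, had the lowest ratio of all members. It was at 4.65, 4.69 and 4.15 FPKM after corilagin and at 11.5, 10.2 and 7.79 FPKM in DMSO. The groups did not overlap, and the means of 4.50 ± 0.304 and 9.83 ± 1.90 FPKM (SD, n = 3 per group) gave a log2 difference of -0.96 (SE 0.139, adjusted p = 0.00689). With the trend removed it was -0.79, and the ratio to DMSO replicate 3 alone was 0.577.

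RRP9, BYSL, NOP14 and UTP4, which act in or on the early processome, had ratios of 0.603, 0.605, 0.690 and 0.768. UTP4 had nearly equal controls, at 16.1, 16.1 and 16.2 FPKM, against 12.2, 12.2 and 12.7 FPKM after corilagin. The 3 members that did not pass, WDR43, UTP20 and HEATR1, are processome components with the lowest GC content of the class (40.3, 42.3 and 41.5%).

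WDR43, which has the highest mean of the class, was at 20.3, 20 and 19.2 FPKM after corilagin and at 17.5, 18.9 and 27.1 FPKM in DMSO. UTP20 was at 2.85, 3.06 and 3.19 FPKM against 2.64, 2.78 and 4.13 FPKM, and it had the highest difference of the class (-0.04, adjusted p = 0.850). HEATR1 was at 8.77, 8.21 and 8.69 FPKM against 8.70, 9.36 and 13.3 FPKM. In each, the treated libraries overlapped the controls, of which DMSO replicate 3 was the highest. The adjusted p was 0.749 for WDR43 and 0.235 for HEATR1. With the trend removed the differences were -0.41 (adjusted p = 0.000458) for WDR43, -0.29 (0.00710) for UTP20 and -0.53 (0.000196) for HEATR1. HEATR1 shares 23.2% of its exon bases with LGALS8.

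The large subunit factors were the largest class, and 12 of 13 tested were lower, with a median of -0.60. Of all genes tested 13.5% were lower, and the box H/ACA class had 4 of 4 lower. Outside the members, 51 other large subunit factors were tested, and 29.4% of them were lower, with a median of -0.02. NOP16, a factor of the early particle, had the lowest difference of the class and the smallest adjusted p of all members. It was at 6.83, 5.74 and 6.10 FPKM after corilagin and at 13.3, 14.3 and 12.5 FPKM in DMSO. The controls were close, the groups did not overlap, and the log2 difference was -0.99 (SE 0.0942, adjusted p = 0.00215), or -0.88 with the trend removed (adjusted p = 7.72e-05).

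MRTO4, a placeholder on the nascent subunit, had the highest mean of the class. It was at 24.5, 24.8 and 25.8 FPKM after corilagin and at 44.3, 43.9 and 35.3 FPKM in DMSO. The difference was -0.69 (adjusted p = 0.00784), and -0.57 with the trend removed. WDR12 had the highest difference of the class, at 7.57, 7.02 and 7.92 FPKM against 9.02, 9.76 and 11.1 FPKM (-0.36, adjusted p = 0.0383). With the GC trend removed WDR12 was at -0.71 (adjusted p = 0.000625).

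WDR12 forms a stable complex with PES1 and BOP1. PES1 was at 0.602 of DMSO and BOP1 at 0.5, so all 3 subunits were lower. BOP1 was at 14.5, 14.0 and 13.1 FPKM after corilagin and at 30.4, 29.7 and 22.9 FPKM in DMSO. The spread of their differences narrowed with the trend removed, to -0.71, -0.52 and -0.69 for WDR12, PES1 and BOP1 from -0.36, -0.69 and -0.94.

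The other lower members of the class had ratios of 0.545 (RRP1), 0.567 (GRWD1, a histone and ribosomal protein chaperone), 0.642 (EBNA1BP2), 0.647 (RRS1), 0.700 (LAS1L, which acts in cleavage of the internal spacer), 0.714 (WDR74) and 0.735 (NIP7). EBNA1BP2 had close controls, at 18.9, 20.3 and 18.7 FPKM, against 12.6, 12.3 and 12.3 FPKM. NIP7 shares 20.2% of its exon bases with COG8, and EBNA1BP2 18.8% with CFAP57. PPAN was at 2.06, 1.89 and 2.16 FPKM against 3.06, 4.31 and 2.34 FPKM, from as few as 107 fragments. Its groups did not overlap, but its difference did not pass either way (-0.45, adjusted p = 0.0742, and -0.23, adjusted p = 0.124).

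NOP2, a methyltransferase of the large subunit rRNA, was the member below the filter. It was at 0.187, 0.404 and 0.256 FPKM after corilagin and at 0.271, 0.245 and 0.396 FPKM in DMSO, from 19 to 37 fragments, and a difference was not detectable at this depth. Of its exon bases, 54.4% are shared with AC006064.6, and 56.0% of those of PPAN with PPAN-P2RY11, both overlapping genes that the table lists at 0. The part of these overlaps in the low levels was not tested.

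**Figure D4:**
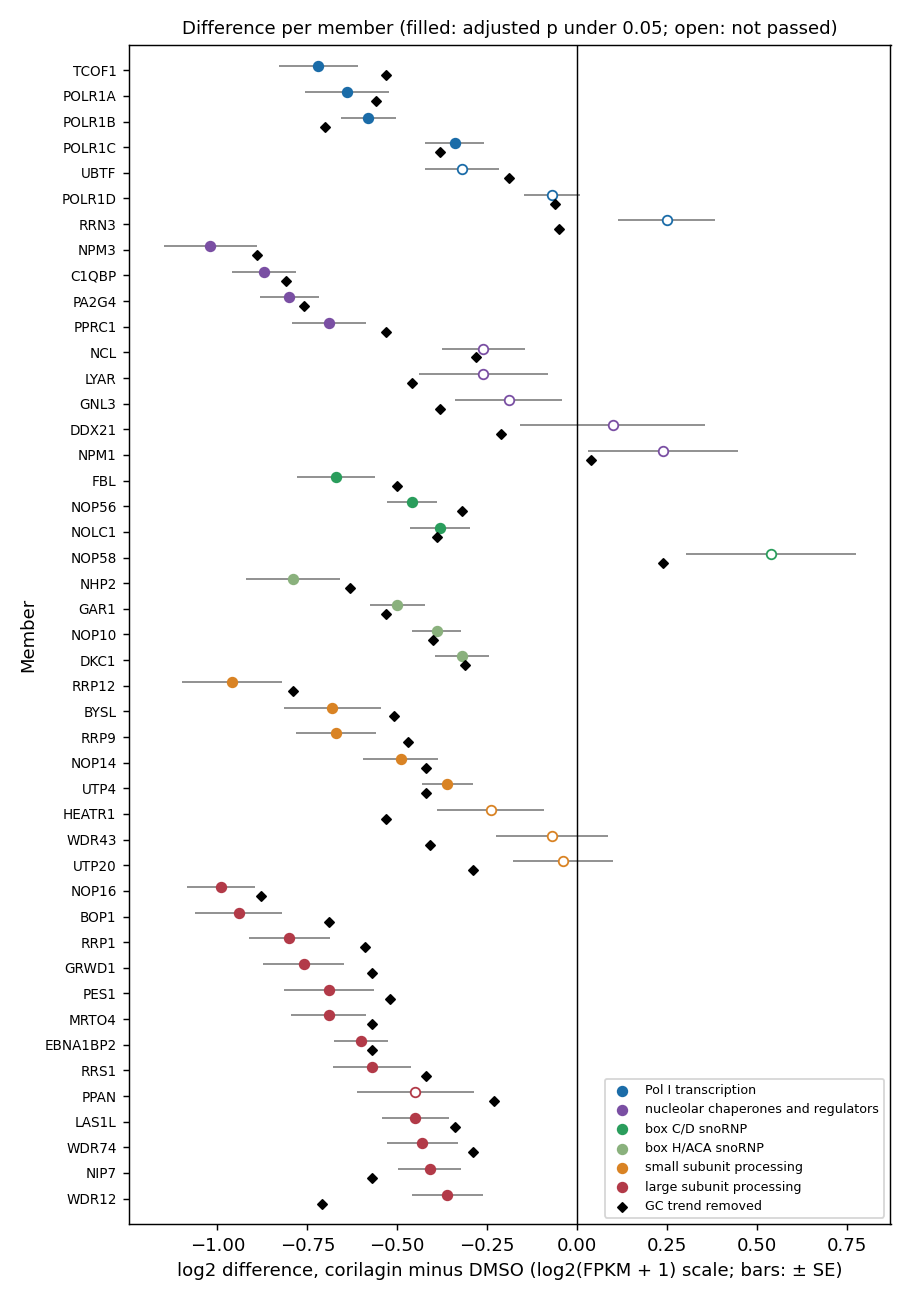
Log2 difference of each tested member (corilagin minus DMSO, log2(FPKM + 1) scale) with its SE, filled where the adjusted p is under 0.05 and open where not. The 32 filled members lie between NPM3 at -1.02 and DKC1 at -0.32, and the open ones reach 0.54 at NOP58.

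Members differ in properties that the choice by name did not use. Their median GC content was 51.0% and their median level 15.5 FPKM, against 48.8% and 8.49 FPKM over all genes tested. In GENCODE, 7 of the 46 (15.2%) hold snoRNA genes inside the gene, against 172 of 9862 tested genes (1.74%). These hosts are NCL, GNL3, NOP56, NOP58, DKC1, WDR43 and PPAN, and 2 of them were lower as deposited and 5 with the trend removed. Of the other 38 tested members 30 and 34 were lower. The hosts had a median GC content of 47.2% and the others of 51.5%. The lengths behind FPKM do not always match the GENCODE 29 exons. For NPM1 the length was 8311 bases, against 1758 for its longest coding transcript and 3828 for all its exons merged. For RRP9 it was 1542 against 1578 for both. Levels of different genes are per that length.

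Outside the members, 144 further ribosome biogenesis factors were listed and 138 tested. Of these, 45 were lower and 1 was higher, with a median of -0.07, and with the trend removed 72 were lower and 4 higher with a median of -0.22. In each list the called gene with the lowest log2(FPKM + 1) difference is named with its ratio to the DMSO mean, and that ratio need not be the lowest of the list. The small subunit list had 18 of 46 lower (IMP4, 0.528), and the large subunit list 15 of 51 (MYBBP1A, 0.475). Further polymerase I factors had 5 of 15 lower (POLR2L, 0.670). Of these, POLR2E, POLR2H and POLR2L are subunits shared with other RNA polymerases, and POLR1E and POLR1G are not. Assembly factors of snoRNPs had 4 of 11 lower (RUVBL2, 0.545) and the exosome with pre-rRNA nucleases 3 of 15 (EXOSC5, 0.573). RIOK3, a kinase placed among the small subunit factors, was the gene that rose, 1.87-fold. RNA polymerase III factors were lower in 4 of 22 (POLR3K, 0.701), and cytosolic ribosomal proteins, the products these factors assemble, in 8 of 82 (9.76%) with a median of -0.14. With the trend removed these counts were 9 of 22 (40.9%) and 20 of 82 (24.4%), with 2 and 1 higher. For comparison, 13.5% of all genes tested were lower as deposited. With the trend removed 23.2% of all genes were lower and 21.8% higher. The share of ribosomal proteins that were lower was thus below that of all genes as deposited and close to it with the trend removed. The share higher was below that of all genes both times, at 0% as deposited (11.9% of all genes) and 1.22% with the trend removed. Their differences were negative in 56 of 82 as deposited and in 65 with the trend removed. Over all genes 4569 of 9868 and 5000 of 9859 were negative. The RNA polymerase III share as deposited (18.2%) rests on 22 genes and lay near that of all genes.

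**Figure D5:**
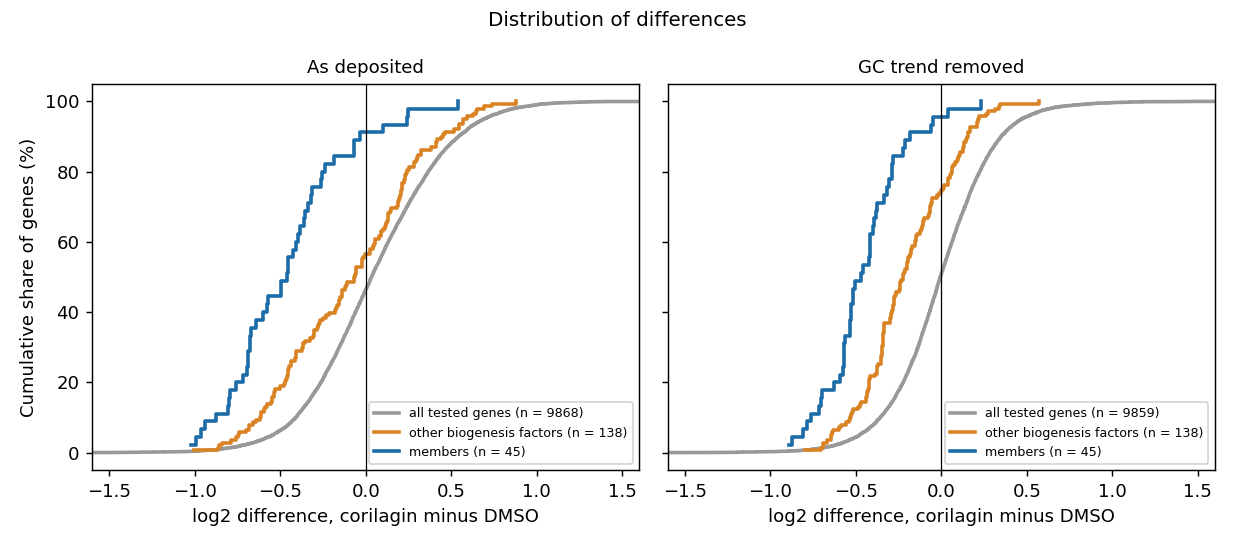
Cumulative share of genes (%) against the log2 difference, corilagin minus DMSO, for the 45 tested members (blue), the 138 other biogenesis factors (orange) and all genes tested (grey), as deposited (left) and with the GC trend removed (right). The member curve lies to the left of both others in each panel, with medians of -0.46 and -0.47.

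MYC itself was at 25.6, 24.5 and 28.3 FPKM after corilagin and at 69.9, 66.2 and 59.2 FPKM in DMSO, a log2 difference of -1.28 (SE 0.0951, adjusted p = 0.00117). MXD1, which opposes MYC at E-boxes, rose 1.83-fold. Both passed with the trend removed, at -1.17 and 0.58. Of 10 listed genes of the MYC network 9 were tested. As deposited 1 was lower, 1 was higher and 7 did not pass. These shares of 11.1% each lay near those of all genes (13.5% lower and 11.9% higher). With the trend removed 1 was lower and 4 were higher (11.1% and 44.4%, on 9 genes), against 23.2% and 21.8% of all genes. A link between these genes and the members was not tested.

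Depth was 17776956 to 21640689 fragments per library, as inferred from the FPKM values. Tested members rested on 107 (PPAN) to 26630 (NCL) fragments. The 9 markers of the line all had a mean of at least 1 FPKM over all libraries. Their sums were 534 to 536 FPKM after corilagin and 475 to 525 in DMSO, most of it FLT3 (307 to 318 and 186 to 261). As deposited MPO and LYZ were lower and FLT3 and MEIS1 higher, while 13.5% and 11.9% of all genes were lower and higher. MPO reached the filter through the DMSO libraries, at 1.57, 1.93 and 1.25 FPKM against 0.71, 0.381 and 0.321 FPKM after corilagin. No T cell marker reached 1 FPKM, and HBB, HBA1, EPCAM, KRT19, CDH1, MS4A1 and COL1A2 were listed at 0 in every library. Of 4 B cell markers 2 reached 1 FPKM, with sums of 5.13 to 6.25 FPKM after corilagin and 5.53 to 6.75 in DMSO.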

How the data were processed

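Poly(A) RNA of 3 corilagin and 3 DMSO libraries was sequenced as read pairs after PCR amplification, per the labels' protocols; strand is not stated, so overlapping genes cannot be told apart. The submitters' processing notes name fastp 0.22.0, HISAT2 2.1.0, HTSeq 0.9.1, DESeq 1.38.3 and GRCh38, without settings. The authors deposited FPKM for 20036 genes, which divide by gene length and library total, so abundant genes can shift the rest.

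FPKM steps gave whole fragments (100.0% within 0.01 of a whole number, by construction of the search). limma 3.58.1 (R 4.3.3; lmFit, eBayes with trend, 2-sided) was fitted to log2(FPKM + 1) for the 9868 genes whose mean reached 1 FPKM, with Benjamini-Hochberg adjustment and a threshold of 0.05. A fold on this scale understates changes of low genes, so ratios are of mean FPKM. The GC trend was removed per library with a natural spline of 5 degrees of freedom over 9859 genes. Simulated data of 9860 genes had the same dispersion in every gene and library, no GC trend and no control set apart. There the limma fit without trend removal called 93 of the 100 genes given a 1.5-fold change and 100 of the 100 given a 2-fold change. It also called 18 that were given none. The real controls differ from that setting, so these rates do not carry over to them.

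Members and gene lists were chosen with earlier results of these data known. Values per library are given, in each role class, for the member with the highest mean, the lowest difference and the highest difference, and for all members that did not pass; other members with values were chosen after they were seen. Other lists name the largest fall and rise on the log2 scale. Coordinates and overlaps are from GENCODE 29, promoters from RefSeq GRCh38.p14. Alternatives were pseudocounts, filters, scalings, voom, a replicate block and left-out libraries; the fits with the trend removed and a library left out were added after the data were seen.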

Additional observations from a re-analysis of the deposited data

How the results depend on the processing

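The count of members lower after corilagin ran from 9 to 36 when 1 library was left out, and from 37 to 41 with the GC trend removed as well, where 1614 to 3258 of the 9834 to 9877 genes tested were lower and 1412 to 3097 higher, each most without DMSO replicate 3. The count of members higher was 0 in each of those fits except without DMSO replicate 3, where it was 5 as deposited and 2 (NPM1 and NOP58) with the trend removed. With the replicate number as a block, 32 members were lower, and with the block and the trend removed 39. Same-numbered libraries correlated at r = 0.28, 0.079 and 0.339 in their deviations from the group means. Corilagin replicate 1 correlated almost as well with DMSO replicate 2 (0.279). Whether the numbers pair the samples cannot be settled from these values. Each corilagin library correlated best with its own number, though replicate 2 did so by 0.079 against 0.064 with DMSO replicate 1. Deviations from a group mean cancel out, and DMSO replicate 3 stood apart, so those of DMSO replicates 1 and 2 both run against it. This order therefore cannot show pairing. The members' median was -0.52 with a pseudocount of 0.1, -0.51 with 0.5, -0.37 with equal library sums, -0.51 with median-of-ratios scaling, -0.52 with quantile normalization and -0.52 with voom. When 1 library was left out it ran from -0.53 to -0.44, and with the trend removed from -0.50 to -0.46. Equal library sums ended the calls of POLR1C, NOLC1, DKC1, WDR12 and NIP7.

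Of the other biogenesis factors, 72 were lower and 4 higher with the GC trend removed, 74 and 6 with the GC and length trends removed, and 75 and 2 with the block and the GC trend removed. Without DMSO replicates 1 and 2 they numbered 79 and 3. With 1 library left out 4 to 63 were lower and 0 to 61 higher. The 61 higher came without DMSO replicate 3, where 36.5% of all genes were lower and 40.8% higher. The 4 lower came without corilagin replicate 3, where 2% of all genes were lower. With the trend removed too, 61 to 82 were lower (71 without DMSO replicate 1) and 1 to 25 higher. The 82 and the 25 came without DMSO replicate 3, where 3258 of 9850 genes tested were lower and 3097 higher. The count higher was 2 with equal library sums, 2 with quantile normalization, 2 with voom and 5 with the block.

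Direction turned for some members that had not passed. POLR1D was at 0.05 with equal library sums, as were WDR43 and UTP20, each at 0.05. Without DMSO replicates 1 and 2 POLR1D was at 0.03, RRN3 at -0.05, NPM1 at -0.26, DDX21 at -0.55 and NOP58 at -0.05. With 1 library left out, WDR43 ran from -0.18 to 0.12 and UTP20 from -0.13 to 0.12, in both cases lowest without DMSO replicate 1 and highest without DMSO replicate 3. RRN3 was at -0.05 with the GC trend removed, -0.06 with length too and -0.05 with the block, and ran from -0.07 to -0.03 with a library left out. DDX21 was at -0.21, -0.24 and -0.21 in the same fits, and with the trend removed was at -0.19, -0.22 and -0.23 without corilagin replicate 1, 2 or 3 and at -0.32, -0.28 and -0.04 without DMSO replicate 1, 2 or 3. As deposited DDX21 ran from -0.10 without DMSO replicate 1 to 0.43 without replicate 3, and was at -0.02 without replicate 2. NPM1 was at -0.10 with the trend removed and without DMSO replicate 1. The cause was not tested. Depth limits NOP2 and PPAN most.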
